A study of Homo sapiens with 12 samples.

Results

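The tripartite motif (TRIM) genes were followed in A375, an established human malignant melanoma line, by RNA sequencing of 12 samples. Members were the rows of the count table whose symbol is TRIM, a number and at most a closing A or B, which gave 69 of 56609 rows. Cells were wild type or carried a CRISPR/Cas9 knockout of MAPKAPK2, the kinase also called MK2, and both genotypes were kept for 48 h in 500 nM JQ1 or in DMSO, which gave 4 groups of 3 replicates. JQ1 is a small molecule that displaces BET bromodomain proteins from acetylated histones, and the study asked how loss of MAPKAPK2 raises resistance to such inhibitors. The wild-type and knockout cells share the A375 background, and the labels do not say whether the knockout cells are 1 clone or a pool, or whether replicates were separate cultures.

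TRIM proteins carry a RING finger, B-boxes and a coiled coil, and most of them are ubiquitin ligases whose target is set by the C-terminal domain. Members with a PRY-SPRY domain include many that act in antiviral defence, and members with a PHD finger and bromodomain read chromatin and work as transcriptional cofactors. In melanoma the bromodomain member TRIM28, with the MAGE proteins that bind it, has been studied as a regulator of gene silencing and of protein turnover.

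The libraries held 25316565 to 34594025 counts, and the members took 0.170 to 0.185% of them. MAPKAPK2 itself lay between 87.9 and 120 CPM (counts scaled by TMM to 1000000 per library) in the 6 wild-type libraries and between 11.1 and 15.7 CPM in the 6 knockout libraries. Of the melanoma markers, SOX10, S100B and S100A1 were present and MITF averaged 43.1 CPM in wild type under DMSO, whereas PMEL and MLANA were under 1 CPM there and TYR, DCT and TYRP1 were too low to test. Some markers differed between the genotypes in DMSO: NGFR was lower in the knockout (8.01 and 1.70 CPM, adjusted p = 1.06e-06), MITF also (43.1 and 28.8 CPM, adjusted p = 0.000323), and S100B was higher (29.3 and 40.03 CPM, adjusted p = 0.000403). S100A1 fell under JQ1 by 0.81 and by 0.85 on the log2 scale. Replicate 3 of the knockout under JQ1 stood apart: its counts differed from those of its replicates with a chi-square per degree of freedom of 26.1 and 27.5, against 3.36 to 7.64 for the other pairs within groups. The results that library moved most are also given without it.

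Of the 69 members, 45 had enough counts to be tested, and 24 did not. TRIM15, TRIM29, TRIM40 and TRIM42 had no count in any library, and the untested member with the most counts was TRIM67, with 103 over the 12 libraries. The tested member with the fewest was TRIM73, with 165. None of the muscle RING finger members TRIM54, TRIM55 and TRIM63 was tested. Among the untested members, TRIM22, an interferon-induced antiviral factor, had 6, 7 and 2 counts in wild type under DMSO and 1, 0 and 4 under JQ1. Its counts were 18, 6 and 12 in the knockout under DMSO and 1, 0 and 0 under JQ1. All TRIM22 counts were low and the DMSO groups overlapped. In 11 of 19 alternatives TRIM22 was tested and called lower under JQ1 in the knockout. Apart from the fit with no filter, it was tested there only through its counts in the knockout under DMSO. These calls are therefore no separate support for a fall.

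Levels between genes were compared per kilobase of exon in wild-type cells under DMSO. TRIM28 was highest, at 55.9, 62.2 and 62.2 CPM per kilobase in the 3 libraries. TRIM2, a ligase with NHL repeats, averaged 23.5 CPM per kilobase, TRIM44, a relative without a RING finger, 15.7, TRIM32 11.4 and TRIM25 11.3. TRIM51 averaged 1.34 on this scale, 34th in the order of the tested members.

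The stretches of sequence below serve 2 comparisons made later. The first is TRIM51 with TRIM51G, a close copy elsewhere on chromosome 11 that the count table lists as TRIM51GP. RefSeq windows on GRCh38.p14 were used, reaching 250 bases before to 50 after the start of a gene. TRIM51 (window at chr11:55883047-55883234, plus strand) and TRIM51G (chr11:48983886-48984073, minus strand) are shown up to the start of TRIM51G, over 188 bases. Capitals mark the bases at which the pair differs.
TRIM51: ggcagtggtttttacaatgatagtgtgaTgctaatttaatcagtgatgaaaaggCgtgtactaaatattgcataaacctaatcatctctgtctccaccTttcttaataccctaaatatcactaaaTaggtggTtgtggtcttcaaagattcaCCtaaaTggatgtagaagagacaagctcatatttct
TRIM51G: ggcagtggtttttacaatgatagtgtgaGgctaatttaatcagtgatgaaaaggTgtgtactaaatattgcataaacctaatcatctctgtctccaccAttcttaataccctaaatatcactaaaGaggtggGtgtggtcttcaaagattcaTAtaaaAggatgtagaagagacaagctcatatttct
Over these 188 bases the pair differed at 8 positions. Over the whole aligned stretch of 229 bases it differed at 9 positions and was 96.1% identical.

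The other set concerns members that fell under JQ1. The motif searched, on both strands and with overlapping matches counted, was GAAA, any 2 bases and GAAA again, the repeat at the core of interferon-stimulated response elements. Stretches of 30 bases around it, with the match in capitals, are given for TRIM14 (chr9:98119229-98119258, minus strand), TRIM16 (chr17:15683012-15683041, minus), TRIM21 (chr11:4393663-4393692, minus), TRIM44 (chr11:35662730-35662759, plus) and TRIM26 (chr6:30213578-30213607, minus). TRIM14, TRIM16 and TRIM21 fell in both genotypes, TRIM44 fell in the knockout and TRIM26 rose in both.
TRIM14: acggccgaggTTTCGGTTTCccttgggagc
TRIM16: acagaggtaaGAAATAGAAAtaaagggtcc
TRIM21: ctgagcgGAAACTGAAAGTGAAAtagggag
TRIM44: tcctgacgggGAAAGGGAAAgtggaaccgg
TRIM26: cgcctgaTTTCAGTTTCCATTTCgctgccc
TRIM21 and TRIM26 each held 2 overlapping matches.

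The largest differences of any member with a mean of at least 1 CPM were those of TRIM51, a PRY-SPRY member at chr11:55883297-55891810 on the plus strand. Wild-type cells under DMSO had 2.06, 2.66 and 2.64 CPM, and under JQ1 they had 0.502, 0.705 and 0.444 CPM. Knockout cells under DMSO had 14.1, 12.6 and 13.3 CPM, and under JQ1 they had 2.78, 3.85 and 2.82 CPM. No values of the 4 groups overlapped, and the order was wild type with JQ1, wild type with DMSO, knockout with JQ1 and knockout with DMSO. The middle 2 groups were close, with 2.66 CPM as the highest of one and 2.78 CPM as the lowest of the other.

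The knockout carried 5.46 times the TRIM51 level of wild type in DMSO, or 2.45 ± 0.15 (SE) on the log2 scale (adjusted p = 1.37e-07, edgeR's quasi-likelihood test). Under JQ1 it carried 5.75 times the level, or 2.52 ± 0.21 on the log2 scale (adjusted p = 1.98e-06). TRIM51 was among the genes named when the family was chosen for its difference in the knockout, so this difference is a description of known values. JQ1 lowered TRIM51 to 22.3% of the DMSO level in wild type (log2 fold change -2.17 ± 0.21, adjusted p = 2.23e-06) and to 23.5% in the knockout (-2.09 ± 0.15, adjusted p = 1.04e-07). The 2 responses to JQ1 differed by 0.07 ± 0.25 on the log2 scale (adjusted p = 0.967 for the interaction).

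**Figure D1:**
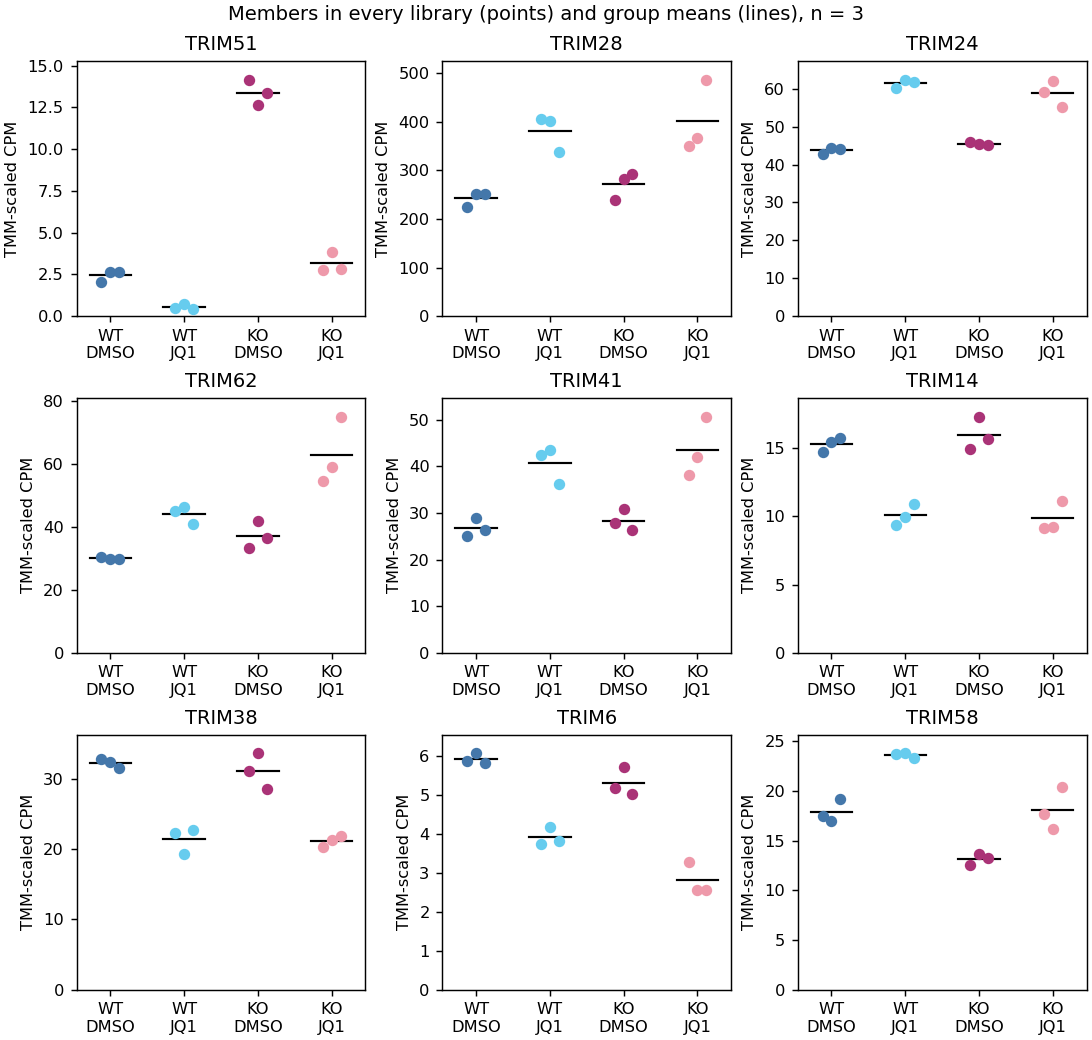
TMM-scaled CPM on a linear axis from 0 for 9 members in the 4 groups; points are the 3 libraries of a group and lines are group means. TRIM51 is highest in the knockout under DMSO (12.6 to 14.1 CPM) and lowest in wild type under JQ1 (0.444 to 0.705 CPM).

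Rows for close copies of TRIM51 lay outside the symbol rule, and the deposited counts could divide shared reads among them. TRIM51GP had 4, 0 and 6 counts in wild type under DMSO and 24, 16 and 15 in the knockout under DMSO, and the log2 fold change was 2.57 ± 0.65 (adjusted p = 0.0226). Under JQ1 it had 0, 1 and 5 counts in wild type and 3, 4 and 8 in the knockout, which did not pass (1.43 ± 0.85, adjusted p = 0.385). TRIM53AP, a related pseudogene, had 0, 3 and 7 counts in wild type and 11, 17 and 14 in the knockout under DMSO (2.18 ± 0.70, adjusted p = 0.0743). For both rows the DMSO groups did not overlap. Both passed the filter on low counts only through the knockout under DMSO, where they were highest. Their differences therefore describe that group's counts and are no separate support for TRIM51. Among untested copy rows, TRIM53CP had 0, 1 and 4 counts in wild type and 20, 9 and 13 in the knockout under DMSO. TRIM51CP had 3, 3 and 2 against 13, 14 and 4 there, TRIM51HP 1, 1 and 1 against 3, 6 and 4. TRIM51FP had 2, 0 and 1 against 3, 4 and 5, whereas TRIM51EP had 2, 1 and 1 against 0, 2 and 0. Whether such rows share reads with TRIM51 was not tested. Related PRY-SPRY members elsewhere on chromosome 11 were barely detected: TRIM48 had 9 counts over the 12 libraries, TRIM49 10, TRIM49B 11, TRIM64 2, TRIM64B 42 and TRIM77 6.

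Around TRIM51, the 10 nearest tested genes, 5 on each side, were mostly olfactory receptor genes or pseudogenes. Only AC036111.1, an unprocessed pseudogene starting 15.7 kb away on the side of lower coordinates, was called higher in the knockout. It averaged 0.317 CPM in wild type and 1.30 CPM in the knockout under DMSO (log2 fold change 2.03 ± 0.28, adjusted p = 0.000285). The knockout also exceeded wild type within the JQ1 groups (2.01 ± 0.31, adjusted p = 0.000756). As this pseudogene was low in wild type, it may have passed the filter on low counts only through the knockout. Its difference is therefore no separate support for TRIM51. OR5AS1, the nearest tested gene on the other side at 144.4 kb, averaged 12.6 CPM in both genotypes under DMSO (adjusted p = 0.9995). In the 300-base windows described above, TATAAA on either strand was found once for TRIM51G, 36 bases before its start and across differing bases printed above, and not for TRIM51. Of all 35116 windows, 11.5% held it.

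JQ1 changed 20 of the 45 tested members in wild-type cells, 13 upwards and 7 downwards, and 22 in knockout cells, 13 upwards and 9 downwards. Over all 21698 tested genes, 33.1% passed in wild type (16.9% higher and 16.2% lower) and 34.4% in the knockout (16.7% higher and 17.8% lower). The median log2 fold change of the tested members was 0.03 in wild type and -0.01 in the knockout, beside -0.03 and -0.004 for all tested genes. Scaling to library totals in place of TMM gave 7 members higher and 11 lower in wild type, and 9 higher and 13 lower in the knockout. It called 35.3% of all tested genes in each genotype. That scaling moved the median of all tested genes to -0.16 and -0.12. As this was bulk RNA, fewer cells of a type and less RNA per cell cannot be told apart.

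In all, 19 members passed in both genotypes, each in the same direction, 12 upwards and 7 downwards. Whether that number or the shared direction differs from what all tested genes show was not tested. The rising members were TRIM11, TRIM24, TRIM25, TRIM26, TRIM28, TRIM35, TRIM36, TRIM37, TRIM41, TRIM58, TRIM62 and TRIM68, and the falling ones TRIM6, TRIM14, TRIM16, TRIM21, TRIM38, TRIM51 and TRIM56. TRIM4 passed in wild type alone, a call lost in 9 of 19 alternatives. TRIM44, TRIM46 and TRIM73 passed in the knockout alone, and 22 members passed in neither. No member passed the test of the interaction, in which 0.134% of all tested genes passed (0.0323% higher and 0.101% lower); 3 members were at an unadjusted p under 0.05 with edgeR and 2 with DESeq2, which called none. Without replicate 3 of the knockout under JQ1, 22 members passed in wild type, beside 38% of all tested genes, and 23 in the knockout, beside 33.6%. In that fit the JQ1 log2 fold changes in the knockout, all called, were 0.29 for TRIM11, 0.50 for TRIM41, 0.51 for TRIM68, 0.37 for TRIM58, -0.79 for TRIM14 and -0.73 for TRIM56.

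**Figure D2:**
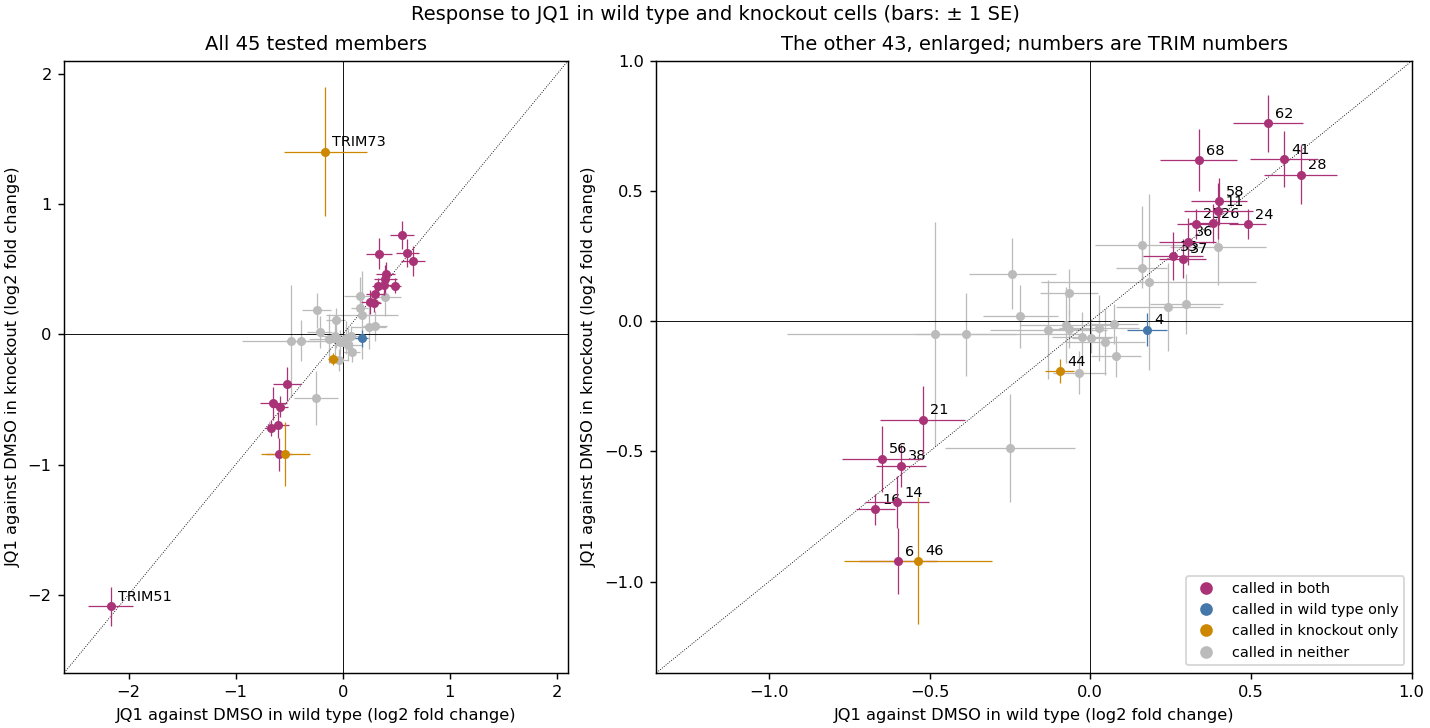
Log2 fold change of JQ1 against DMSO in wild type (horizontal) and in the knockout (vertical) with 1 SE either way; the left panel holds all 45 tested members and the right panel enlarges the other 43. The 19 members that passed in both genotypes lie in the upper right (12) and lower left (7), with TRIM51 at -2.17 and -2.09.

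Among the chromatin members with a bromodomain, TRIM28 and TRIM24 rose under JQ1. TRIM28, the corepressor of KRAB zinc finger proteins (chr19:58544091-58550722, plus strand), had 225, 251 and 251 CPM in wild type under DMSO and 405, 401 and 338 CPM under JQ1. In the knockout it had 239, 282 and 293 CPM under DMSO and 350, 367 and 486 CPM under JQ1. The JQ1 groups lay above the DMSO groups of both genotypes without overlap, and 486 CPM belonged to the library that stood apart.

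The log2 fold change of TRIM28 was 0.65 ± 0.11 in wild type (adjusted p = 0.000464) and 0.56 ± 0.11 in the knockout (adjusted p = 0.00135), or 0.40 without that library (adjusted p = 0.00193). TRIM24, a coregulator of nuclear receptors that reads acetylated and unmethylated histone H3 (chr7:138460334-138589993, plus strand), had 42.8, 44.4 and 44.0 CPM in wild type under DMSO and 60.1, 62.3 and 61.9 CPM under JQ1. In the knockout it had 45.9, 45.4 and 45 CPM under DMSO and 59.2, 62.1 and 55.3 CPM under JQ1. Its replicates were tight and the treatments did not overlap, with log2 fold changes of 0.49 ± 0.06 (adjusted p = 1.29e-05) and 0.37 ± 0.06 (adjusted p = 0.000139).

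TRIM33, which acts on SMAD complexes, did not pass in either genotype: its log2 fold changes were 0.07 ± 0.08 (adjusted p = 0.513) and -0.01 ± 0.08 (adjusted p = 0.936). TRIM66, a testis-enriched relative, had 0.16 ± 0.14 (adjusted p = 0.438) and 0.29 ± 0.15 (adjusted p = 0.148). Neither the knockout comparison in DMSO nor that under JQ1 called any of these 4 members.

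The partners of TRIM28 in heterochromatin moved both ways. Of 15 listed and tested, 2 rose and 4 fell in wild type (40%, beside 33.1% of all tested genes). In the knockout 2 rose and 6 fell (53.33%, beside 34.4%). Medians were 0.04 and -0.02, beside -0.03 and -0.004 for all tested genes. CHD3, a helicase of the NuRD complex, fell from 112 to 68.0 CPM in wild type (-0.72 ± 0.08, adjusted p = 7.59e-06) and from 122 to 71.5 CPM in the knockout (-0.77 ± 0.08, adjusted p = 3.42e-06). SETDB1, the histone H3 lysine methyltransferase that TRIM28 recruits, fell by 0.25 on the log2 scale in wild type (adjusted p = 0.0188) and by 0.43 in the knockout (adjusted p = 0.000373). DNMT1, the maintenance DNA methyltransferase, rose by 0.28 (adjusted p = 0.0366) and 0.31 (adjusted p = 0.0235).

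Of 12 listed MAGE genes, whose proteins bind TRIM27, TRIM28 or related ligases, 10 were tested. JQ1 raised 2 in wild type (20%) and 3 in the knockout (30%) and lowered none. Over all tested genes 33.1% and 34.4% were called, 16.9% and 16.7% upwards. Medians were 0.11 and 0.25, beside -0.03 and -0.004 for all tested genes. Those that rose in both were NDN (0.51 ± 0.11 and 0.39 ± 0.11, adjusted p = 0.00297 and 0.0122) and NSMCE3 (0.35 ± 0.08 and 0.30 ± 0.08, adjusted p = 0.00406 and 0.0101). MAGEA3 and MAGEC2, the most abundant of the list, did not pass in any comparison.

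For the SMAD pathway list around TRIM33, all 8 genes were tested. In wild type 3 rose and none fell (37.5%, beside 33.1% of all tested genes). In the knockout 4 rose and 2 fell (75%, beside 34.4%). Medians were 0.06 and 0.11, beside -0.03 and -0.004 for all tested genes. SKI and SKIL, which repress SMAD transcription, and the inhibitory SMAD7 rose in both genotypes. SKI rose by 0.59 ± 0.13 (adjusted p = 0.00249) and 0.80 ± 0.13 (adjusted p = 0.000211). Of the BET genes themselves, 3 of 4 were tested and BRD2 alone passed, at 0.24 ± 0.07 (adjusted p = 0.0204) and 0.33 ± 0.08 (adjusted p = 0.00296); their medians were -0.08 and 0.22.

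The largest class held members with PRY-SPRY as the only named C-terminal domain, with 22 of 36 tested. It left out TRIM9, TRIM36 and TRIM46, which are classed by further C-terminal domains. Members without a RING finger, such as TRIM14 and TRIM16, were also left out, whatever their C-terminal domain. In wild type 9 rose and 4 fell (59.09%, beside 33.1% of all tested genes). In the knockout 8 rose and 4 fell (54.55%, beside 34.4%). Medians were 0.07 and 0.01, beside -0.03 and -0.004 for all tested genes. TRIM41, a RING ligase (chr5:181222499-181235809, plus strand), had 25.2, 28.9 and 26.4 CPM in wild type under DMSO and 42.4, 43.6 and 36.2 CPM under JQ1. Knockout values were 27.8, 30.8 and 26.3 CPM under DMSO and 38, 42.0 and 50.6 CPM under JQ1. The treatments did not overlap, and the log2 fold changes were 0.60 ± 0.11 (adjusted p = 0.000492) and 0.62 ± 0.11 (adjusted p = 0.00033).

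TRIM62, a regulator of epithelial polarity also called DEAR1 (chr1:33145402-33182059, minus strand), had 30.5, 29.7 and 29.8 CPM in wild type under DMSO and 45, 46.2 and 40.8 CPM under JQ1. In the knockout it had 33.3, 41.8 and 36.6 CPM under DMSO and 54.5, 59.2 and 75.1 CPM under JQ1. Knockout libraries under JQ1 held the highest values and overlapped no other group. JQ1 raised it by 0.55 ± 0.11 in wild type (adjusted p = 0.00121) and by 0.76 ± 0.11 in the knockout (adjusted p = 6.77e-05), the latter 0.61 without replicate 3 (adjusted p = 3.34e-05).

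TRIM25, the ligase that activates RIG-I, rose from a mean of 108 to 135 CPM in wild type (0.33 ± 0.06, adjusted p = 0.000526) and from 108 to 140 CPM in the knockout (0.37 ± 0.06, adjusted p = 0.000151). TRIM26, encoded in the major histocompatibility region, rose by 0.38 ± 0.08 in each genotype (adjusted p = 0.00115 and 0.00121). TRIM68, a coactivator of the androgen receptor, rose by 0.34 ± 0.12 in wild type (adjusted p = 0.042), a call lost in 8 of 19 alternatives, and by 0.62 ± 0.12 in the knockout (adjusted p = 0.000893). TRIM36 and TRIM37, which act on microtubules and centrosomes, rose by 0.30 and 0.29 in wild type and by 0.31 and 0.24 in the knockout. The TRIM36 calls were lost in 4 of 19 alternatives in wild type and 8 in the knockout, and those of TRIM37 in 1 and 5. TRIM35, a ligase of the PRY-SPRY class, rose by 0.26 (adjusted p = 0.0439) and 0.25 (adjusted p = 0.0476), calls lost in 6 and 13 of 19 alternatives.

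TRIM16, TRIM14, TRIM38, TRIM56, TRIM6 and TRIM21 fell in both genotypes. TRIM16, which lacks a RING finger and marks damaged membranes for autophagy (chr17:15627960-15684311, minus strand), had 30.3, 30.5 and 29.6 CPM in wild type under DMSO and 19.0, 19.3 and 18.6 CPM under JQ1. Knockout values were 31.6, 31.7 and 32.3 CPM under DMSO and 19.0, 19.1 and 19.8 CPM under JQ1. Its replicates were the closest of those named here, and the log2 fold changes were -0.67 ± 0.06 (adjusted p = 1.09e-06) and -0.72 ± 0.06 (adjusted p = 4.39e-07). TRIM16L, a near-identical copy, could share its reads; its counts ran from 0 to 164, with 3, 164 and 141 in the knockout under DMSO, and it did not pass in any comparison.

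TRIM14, an adaptor of antiviral signalling without a RING finger (chr9:98069275-98119212, minus strand), had 14.7, 15.4 and 15.7 CPM in wild type under DMSO and 9.39, 9.95 and 10.9 CPM under JQ1. In the knockout it had 14.9, 17.3 and 15.7 CPM under DMSO and 9.14, 9.25 and 11.1 CPM under JQ1. The treatments did not overlap and the genotypes did, with JQ1 log2 fold changes of -0.60 ± 0.10 (adjusted p = 0.000297) and -0.69 ± 0.10 (adjusted p = 8.03e-05).

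TRIM38, a ligase that limits innate immune signalling (chr6:25962802-25991226, plus strand), had 32.8, 32.3 and 31.6 CPM in wild type under DMSO and 22.2, 19.3 and 22.7 CPM under JQ1. Knockout values were 31.0, 33.6 and 28.5 CPM under DMSO and 20.3, 21.2 and 21.8 CPM under JQ1. Again the treatments separated and the genotypes did not, with log2 fold changes of -0.59 ± 0.08 (adjusted p = 4.66e-05) and -0.55 ± 0.08 (adjusted p = 7.75e-05). TRIM56, a ligase that restricts RNA viruses, fell by 0.65 in wild type (adjusted p = 0.00101) and by 0.53 in the knockout (adjusted p = 0.00455).

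TRIM6, which forms free ubiquitin chains that activate IKBKE, lies next to TRIM34 at chr11:5596109-5612958 on the plus strand. It had 5.87, 6.05 and 5.80 CPM in wild type under DMSO and 3.74, 4.16 and 3.82 CPM under JQ1. In the knockout it had 5.16, 5.70 and 5.02 CPM under DMSO and 3.27, 2.56 and 2.56 CPM under JQ1. The lowest values were those of the knockout under JQ1, and the log2 fold changes were -0.60 ± 0.12 (adjusted p = 0.00141) and -0.92 ± 0.13 (adjusted p = 5.32e-05). A read-through row, TRIM6-TRIM34, averaged under 0.7 CPM in every group and could share these reads.

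TRIM21, the cytosolic antibody receptor, fell by 0.52 ± 0.13 in wild type (adjusted p = 0.00694) and by 0.38 ± 0.13 in the knockout (adjusted p = 0.0367), the latter a call lost in 6 of 19 alternatives. TRIM44, a ubiquitin-binding relative without a RING finger, fell in the knockout by 0.19 ± 0.05 (adjusted p = 0.00481) from a mean of 210 to 184 CPM. In wild type its change of -0.10 ± 0.05 did not pass (adjusted p = 0.133), and the interaction had an adjusted p of 0.737. TRIM46, which organises microtubules at the axon initial segment, fell in the knockout by 0.92 ± 0.24 (adjusted p = 0.0089), and in wild type its change was -0.54 ± 0.23 (adjusted p = 0.0906).

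The 22 members that passed in neither genotype included several abundant ones. TRIM2 and TRIM32, the NHL repeat ligases of neurons and muscle, averaged 221 and 43.2 CPM in wild type under DMSO and 234 and 43.3 CPM under JQ1. In the knockout TRIM2 averaged 223 and 203 CPM (adjusted p = 0.213) and TRIM32 48.2 and 46.1 CPM (adjusted p = 0.47). TRIM27, a ligase that MAGE proteins activate, had log2 fold changes of 0.16 (adjusted p = 0.14) and 0.21 (adjusted p = 0.0588). TRIM5, which restricts retroviral capsids, had -0.03 (adjusted p = 0.793) and -0.20 (adjusted p = 0.077), and TRIM8, a regulator of cytokine signalling, had 0.05 (adjusted p = 0.818) and -0.08 (adjusted p = 0.681). The log2 fold changes of these 5 lay between -0.20 and 0.21 in both genotypes.

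The listed genes of RIG-I and interferon signalling, in which TRIM14, TRIM21, TRIM25, TRIM38 and TRIM56 take part, numbered 21 with 20 tested. JQ1 raised 4 and lowered 9 in wild type (65%, beside 33.1% of all tested genes). It raised 3 and lowered 11 in the knockout (70%, beside 34.4%). Medians were -0.26 and -0.55, beside -0.03 and -0.004 for all tested genes. The genes with the smallest adjusted p included TMEM173, which encodes the adaptor STING, OAS1, the sensor of double-stranded RNA that makes oligoadenylates, and IFIH1, which encodes MDA5. TMEM173 fell from a mean of 12.2 to 3.01 CPM in wild type (-2.03 ± 0.15, adjusted p = 1.61e-07) and from 12.6 to 1.73 CPM in the knockout (-2.86 ± 0.16, adjusted p = 9.00e-09). OAS1 fell by 2.19 (adjusted p = 6.58e-07) and by 2.46 (adjusted p = 3.52e-07) on the log2 scale. IRF7 and STAT2, transcription factors of interferon signalling, rose in both genotypes; IRF7 rose by 1.47 ± 0.21 (adjusted p = 9.50e-05) and 1.48 ± 0.22 (adjusted p = 9.84e-05).

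RefSeq windows were matched for 54 of the 69 members. The doubled GAAA motif was found in 9 of these 54 (16.7%), namely TRIM2, TRIM5, TRIM14, TRIM16, TRIM21, TRIM26, TRIM34, TRIM44 and TRIM69. Of the 7 members that fell in both genotypes, all with a window, 3 held it, the TRIM14, TRIM16 and TRIM21 stretches printed above. Among the members that rose in both genotypes 8 had a window, and TRIM26 alone held it. Among all 35116 windows 3.57% held the motif, and 4.38% of 27305 genes had such a window. TRIM2, TRIM5 and TRIM34, which also held it, did not pass in either genotype.

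Of the 13 listed E2 enzymes that pass ubiquitin to TRIM ligases, all were tested. In wild type 3 rose and 3 fell (46.15%, beside 33.1% of all tested genes). In the knockout 4 rose and 3 fell (53.85%, beside 34.4%). Medians were 0.08 and 0.04, beside -0.03 and -0.004 for all tested genes. UBE2E1 fell by 0.50 (adjusted p = 0.000841) and by 0.56 (adjusted p = 0.000314), and UBE2L6, an E2 for ISG15, fell by 0.21 (adjusted p = 0.0434) and by 0.52 (adjusted p = 6.77e-05). Genes of the same architecture under other symbols numbered 8 with 6 tested. In wild type 1 rose and 1 fell (33.33%), and in the knockout 1 rose and 2 fell (50%), with medians of -0.09 and -0.50. MID1, a microtubule-bound ligase, rose under JQ1 by 0.46 ± 0.09 (adjusted p = 0.00119) and 0.42 ± 0.09 (adjusted p = 0.00216), and RNF135, a RIG-I ligase, fell by 0.34 (adjusted p = 0.00735) and by 0.45 (adjusted p = 0.00103). PML did not pass in any comparison.

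Markers of other cells were low, and some of these lists had lower sums under JQ1. The fibroblast list, with 4 of 6 genes tested and COL1A2 and COL3A1 under 0.1 CPM in every group, summed to 15.9 to 17.5 CPM in wild type under DMSO and 4.76 to 5.78 CPM under JQ1. In the knockout it summed to 12.9 to 14.4 CPM and 3.29 to 4.02 CPM. PDGFRB and LUM made up most of the sum. Keratinocyte markers summed to 5.75 to 7.31 CPM in wild type under DMSO and 5.32 to 5.59 CPM under JQ1, and in the knockout to 5.58 to 6.46 CPM and 3.998 to 5.29 CPM. Endothelial markers summed to 1.95 to 2.36 CPM and 1.13 to 1.30 CPM in wild type, and their sums overlapped in the knockout. Leukocyte markers summed to at most 1.56 CPM in any library. The part of these cell markers in the results of the members was not tested.

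The knockout differed from wild type in 6 members under DMSO, TRIM51 and TRIM3 upwards and TRIM11, TRIM58, TRIM59 and TRIM73 downwards, beside 7.92% of all tested genes (3.47% higher and 4.44% lower). Under JQ1 it differed in 4, TRIM51 and TRIM62 upwards and TRIM6 and TRIM58 downwards, beside 8.57% of all tested genes (3.01% higher and 5.56% lower). The medians of the tested members were 0.03 in both, beside -0.005 and -0.002 for all tested genes. Leaving out replicate 3 of the knockout under JQ1 gave 8 members in DMSO, beside 11.9% of all tested genes, and 7 under JQ1, 2 higher and 5 lower, beside 10.5%; TRIM8, TRIM11, TRIM17 and TRIM47 joined the lower ones and TRIM6 dropped out. In DMSO 2 members were called without replicate 2 of the wild type, or without replicate 2 or 3 of the knockout, and 3 without replicate 1 of the wild type. These fits called 4.83 to 5.64% of all tested genes. Under JQ1 2 were called without replicate 2 of the knockout, beside 7.33%. TRIM51 was called in each of these.

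**Figure D3:**
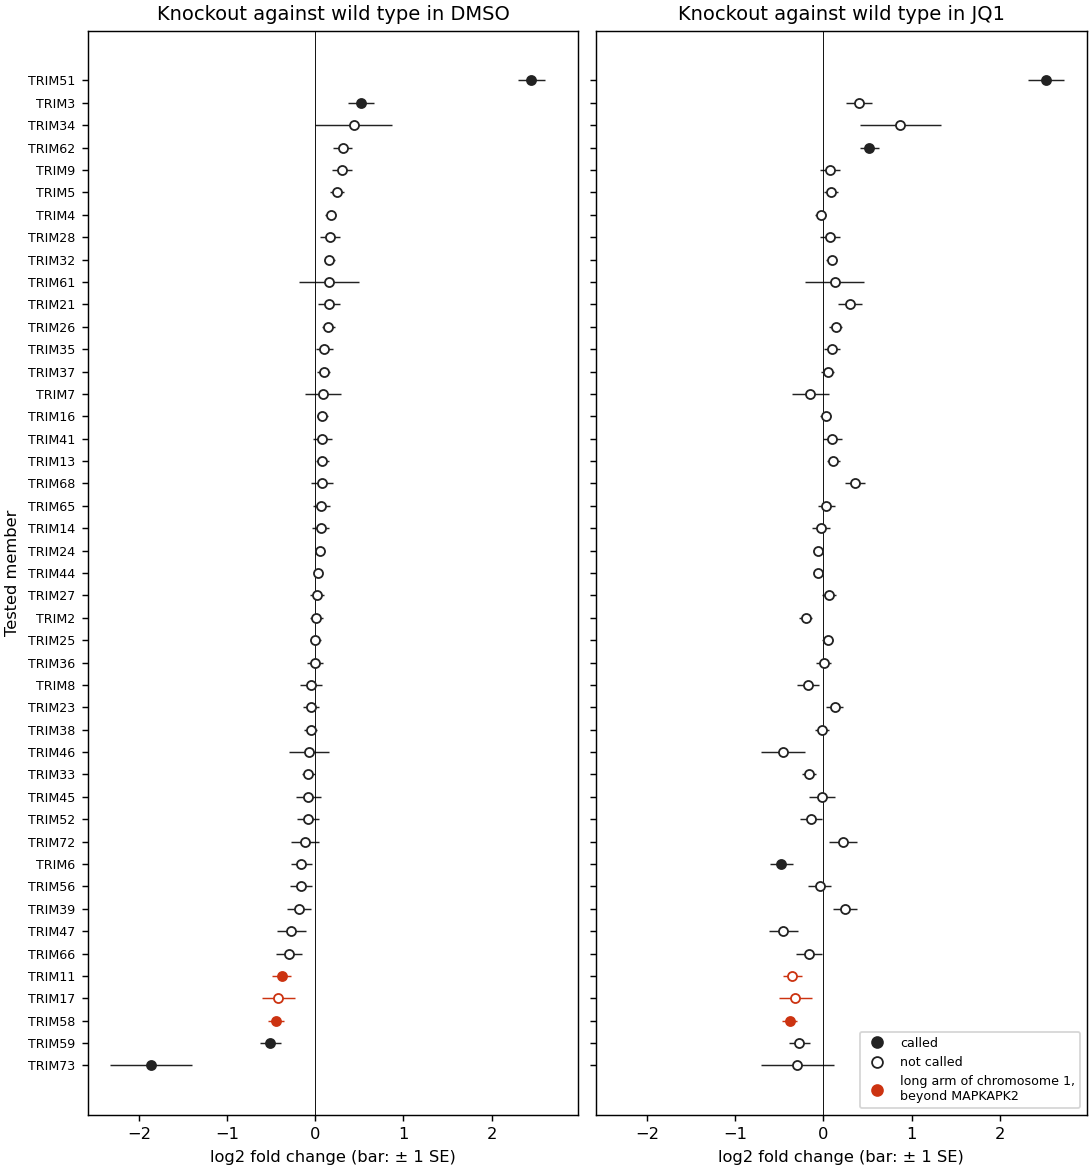
Log2 fold change of knockout against wild type for the 45 tested members in DMSO (left) and under JQ1 (right), with 1 SE either way; filled points passed the test and red marks the members beyond MAPKAPK2 on chromosome 1. TRIM51 is at 2.45 and 2.52 while the filled red points lie between -0.45 and -0.38.

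Apart from TRIM51 and the members beyond MAPKAPK2 on chromosome 1, the called members were TRIM62, TRIM6, TRIM59, TRIM3 and TRIM73. TRIM62 was higher in the knockout under JQ1 by 0.52 ± 0.11 (adjusted p = 0.00653), or 0.37 without replicate 3 (adjusted p = 0.00916). In DMSO its difference of 0.31 ± 0.11 did not pass (adjusted p = 0.113). It was called higher there with DESeq2, with no filter on low counts, with only the groups compared, and without replicate 3 of the knockout under JQ1. The interaction of TRIM62 was 0.21 ± 0.15 (adjusted p = 0.761). TRIM6 was lower under JQ1 by 0.48 ± 0.13 (adjusted p = 0.0328), a call lost in 11 of 19 alternatives. TRIM59, a membrane-anchored member, had 11, 12.8 and 11.3 CPM in wild type and 9.30, 7.45 and 7.79 CPM in the knockout under DMSO. These did not overlap (-0.51 ± 0.12, adjusted p = 0.0147), and the call was lost in 3 of 19 alternatives.

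TRIM3, a brain-enriched ligase with NHL repeats, had 5.07, 4.92 and 5.69 CPM in wild type and 5.90, 8.34 and 8.21 CPM in the knockout under DMSO. The groups did not overlap, and the call (0.51 ± 0.15, adjusted p = 0.0468) was lost in 10 of 19 alternatives. TRIM73 shares nearly all of its sequence with TRIM74, so its reads are uncertain, and it stayed under 1 CPM. It had 0.835, 0.708 and 0.357 CPM in wild type and 0.0962, 0.206 and 0.211 CPM in the knockout under DMSO (-1.86 ± 0.47, adjusted p = 0.0219). Under JQ1 the knockout had 0.647, 0.487 and 0.253 CPM, which passed against its own DMSO libraries (1.40 ± 0.49, adjusted p = 0.0396). Of 19 alternatives, the DMSO call was lost in 5 and TRIM73 was not tested in 1, and the JQ1 call was lost in 9 and not tested in 2.

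Of the lists, the interferon genes held no call in the knockout under DMSO (median -0.02, beside -0.005 for all tested genes) and 2 lower calls under JQ1, IFIT1 and TMEM173 (median -0.20). Over all tested genes 7.92% were called in DMSO and 8.57% under JQ1. Of the 10 tested MAGE genes, 1 was called higher and 1 lower in DMSO, and 2 lower under JQ1 (medians 0.04 and 0.06). MAGEA1 was lower in the knockout by 2.95 ± 0.27 in DMSO (adjusted p = 5.12e-06) and by 2.31 ± 0.25 under JQ1 (adjusted p = 2.48e-05), from means of 2.21 and 2.41 CPM in wild type. MAGEC1, under 1 CPM in every group, was lower under JQ1 by 2.90 ± 0.64 (adjusted p = 0.0102), and NDN was higher in DMSO by 0.44 ± 0.11 (adjusted p = 0.0245). MID1 was lower by 0.33 (adjusted p = 0.0401) and by 0.36 (adjusted p = 0.0221), whereas its paralog MID2 was higher in DMSO by 0.60 ± 0.17 (adjusted p = 0.0443). UBE2L6 was higher in DMSO by 0.46 ± 0.07 (adjusted p = 0.00111). Of the 15 TRIM28 partners, CBX5, a heterochromatin protein that binds TRIM28, was called higher in DMSO (0.23, adjusted p = 0.00553) and FAM208A, a HUSH complex subunit, lower under JQ1. Of the 8 SMAD pathway genes and the 3 tested BET genes, none was called in either knockout comparison.

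TRIM11, TRIM17, TRIM58 and TRIM67 lie on the long arm of chromosome 1 between MAPKAPK2 and the telomere, and they were named for that position when the family was chosen. TRIM11, a ligase of protein quality control (chr1:228393673-228406840, minus strand), had 43.4, 48.6 and 42.9 CPM in wild type under DMSO and 30.8, 35.9 and 36.9 CPM in the knockout. Under JQ1 it had 63.5, 61.5 and 52.8 CPM in wild type and 42.6, 41.7 and 54.5 CPM in the knockout. The genotypes separated in DMSO and overlapped under JQ1, where 54.5 CPM belonged to replicate 3 of the knockout.

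The difference of TRIM11 was -0.38 ± 0.11 in DMSO (adjusted p = 0.0446), a call lost in 10 of 19 alternatives, and -0.35 ± 0.11 under JQ1 (adjusted p = 0.055), which became -0.49 without replicate 3 (adjusted p = 0.0023). JQ1 raised it by 0.40 ± 0.11 in wild type (adjusted p = 0.00969) and by 0.42 ± 0.11 in the knockout (adjusted p = 0.00707). With library totals as the scale the former became 0.27 (adjusted p = 0.0508).

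TRIM58, an erythroid ligase that targets dynein (chr1:247857199-247878205, plus strand), had 17.5, 17 and 19.2 CPM in wild type under DMSO and 12.5, 13.6 and 13.3 CPM in the knockout. Under JQ1 it had 23.8, 23.8 and 23.4 CPM in wild type and 17.7, 16.2 and 20.4 CPM in the knockout. The genotypes did not overlap under either treatment. It was lower in the knockout by 0.45 ± 0.09 in DMSO (adjusted p = 0.00526) and by 0.38 ± 0.09 under JQ1 (adjusted p = 0.0123), the latter a call lost in 2 of 19 alternatives, and JQ1 raised it by 0.40 ± 0.09 (adjusted p = 0.00253) and 0.46 ± 0.09 (adjusted p = 0.00103).

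TRIM17, a ligase studied in neuronal apoptosis, lies beside TRIM11 at chr1:228407940-228416861 on the minus strand. It had 4.56, 5.06 and 5.08 CPM in wild type and 4.04, 3.85 and 3.09 CPM in the knockout under DMSO, which did not overlap but did not pass (-0.42 ± 0.18, adjusted p = 0.22). Under JQ1 the difference was -0.32 ± 0.19 (adjusted p = 0.373), and without replicate 3 of the knockout it was -0.61 and passed (adjusted p = 0.0272). TRIM67 had 4 to 17 counts in any library and was not tested. Its groups overlapped.

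These members were set beside the other tested genes of chromosome 1. Beyond MAPKAPK2, 300 genes were tested; 42.7% were called lower in the knockout in DMSO, with a median log2 fold change of -0.39, and 46% under JQ1, with a median of -0.37. Of the 1827 tested genes on the rest of the chromosome 4.32% were called lower in DMSO, with a median of -0.01, and 5.36% under JQ1. The values of TRIM11, TRIM17 and TRIM58 thus lay near the median of that stretch. Of the 10 nearest tested genes, 4 were called lower around TRIM11 in DMSO and 7 under JQ1, 5 and 5 around TRIM17, 0 and 0 around TRIM58, and 10 and 10 around TRIM67. Around TRIM58 the neighbours' median was -0.20 in DMSO and -0.29 under JQ1, and 9 of the 10 were lower in DMSO. Apart from OR2M3 (24.6 CPM), these neighbours averaged only 0.227 to 1.99 CPM in wild type under DMSO, which limits the calls there. For these members, lying beyond the edited gene and the loss of MAPKAPK2 cannot be told apart. TRIM33, TRIM45, TRIM46 and TRIM62, on the same chromosome but before MAPKAPK2, had differences of -0.08, -0.08, -0.07 and 0.31 in DMSO and of -0.16, -0.02, -0.46 and 0.52 under JQ1, where TRIM62 alone was called.

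**Figure D4:**
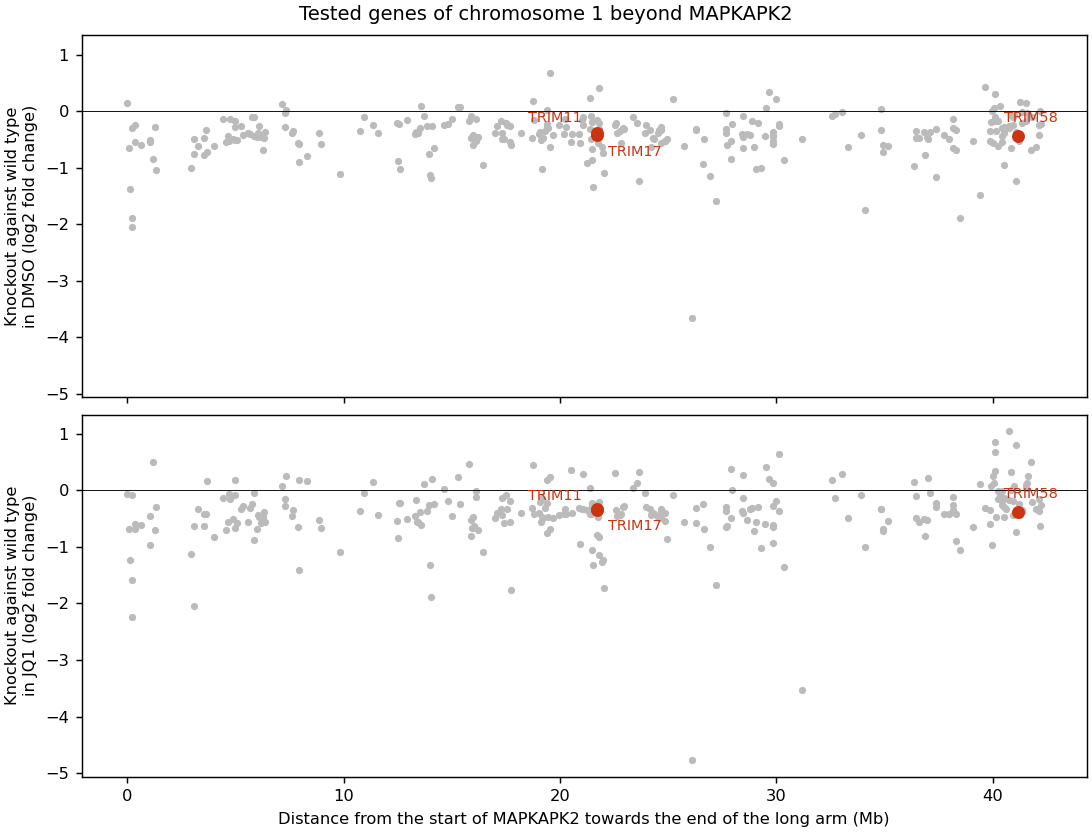
Log2 fold change of knockout against wild type (vertical) for the 300 tested genes of chromosome 1 beyond MAPKAPK2, by distance in Mb from its start (horizontal), in DMSO (top) and under JQ1 (bottom). TRIM11, TRIM17 and TRIM58 (red) lie among the grey points, whose medians are -0.39 and -0.37.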

How the data were processed

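RNA of 12 A375 samples (4 groups of 3) was sequenced after ribosomal RNA depletion with a directional kit, per the labels' protocols. The authors deposited estimated counts per gene symbol; the submitters' processing notes name Trim Galore, cutadapt, FastQC, MultiQC, kallisto, DESeq2 and GRCh38.p10, without versions. The annotation and the use of strand are not given in the sources used here, so copies and overlapping genes may share reads. The authors' deposited normalized signal (32828 genes) equals the rounded count over a factor that differs by gene and library, and served in 1 alternative only.

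Estimated counts were rounded, filtered with filterByExpr (21698 genes, at least 99.9% of each library's counts), scaled by TMM (factors 0.926 to 1.06) and fitted with edgeR 4.0.16's quasi-likelihood test (limma 3.58.1, R 4.3.3) over all 12 libraries with a term per group. "Called", "rose", "fell" and "passed" mean a Benjamini-Hochberg adjusted p under 0.05 over all tested genes. SE was taken as |log2 fold change| over the root of F. CPM are counts scaled by TMM to 1000000 per library. Groups came from the genotype and treatment labels, and p-values measure the spread between these samples, which may be technical. Depth was 25316565 to 34594025 counts, and the number of replicates limits the precision. Positions and exon lengths came from GENCODE 29 (GRCh38), and windows from RefSeq on GRCh38.p14, aligned with Biopython 1.88.

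Full statistics went to TRIM51, the members beyond MAPKAPK2 on chromosome 1, the bromodomain members and, per comparison, the up to 8 called members with the largest rise and fall at 1 CPM or more; other members could be named. From each list, the 3 best-ranked genes by adjusted p in a comparison could be named, and others named were chosen after their values were seen. The members and lists were chosen with earlier results of these data known. The scripts were tested on simulated data. Replicate numbers were not used to pair the samples in the main fit. Alternatives were other scaling, filters, tools (DESeq2 1.42.0, limma on the signal), samples and a replicate block.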

Additional observations from a re-analysis of the deposited data

How the results depend on the processing

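Each result was recomputed under 19 alternatives, or 18 for the interaction. For the 66 pairs of a named member and a comparison this gave 1246 values, of which 1165 kept direction and side of the threshold, 51 lost and 9 gained a call, and 21 changed sign. All 41 called pairs kept their direction in every alternative, and the TRIM51 calls in the 4 comparisons held in all 19. Leaving out 1 library at a time gave 16 to 22 called members for JQ1 in wild type, beside 25.4 to 38% of all tested genes. For JQ1 in the knockout it gave 17 to 23, beside 28.3 to 33.6%. For the knockout in DMSO (6 called) it gave 2 to 8, with 2 without replicate 2 of the wild type and without replicate 2 or 3 of the knockout under DMSO, 3 without replicate 1 of the wild type under DMSO, and 8 without replicate 3 of the knockout under JQ1. For the knockout under JQ1 (4 called) it gave 2, without replicate 2 of that group, to 7, without its replicate 3. With no filter on low counts the latter comparison gave 7 members, beside 5.17% of all tested genes. With only the groups compared in the fit it gave 2, beside 4.66%. The cause was not tested. The interaction gave 0 in every alternative. Over all tested genes the knockout in DMSO gave 1718 calls, 2619 with only its groups in the fit and 1092 to 2650 leaving out 1 library. The knockout under JQ1 gave 1860, 922 and 1223 to 2331, and the interaction 29, 139 with DESeq2, 236 with no filter and 8 to 88 leaving out 1 library. The filter on low counts left out 24 members, of which 4 had no count in any library, and the part of depth in this was not tested. With no filter, TRIM22 (57 counts) was called lower under JQ1 in the knockout, and TRIM43 (28 counts) lower in the knockout under JQ1.

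Same-numbered samples did not deviate together throughout (18 pairs, r from -0.392 to 0.365, 4 over 0.1). Between the 2 knockout groups r was 0.365 for replicate 1, -0.143 for replicate 2 and 0.241 for replicate 3. A replicate block gave 21, 22, 5, 3 and 0 called members for JQ1 in wild type, JQ1 in the knockout, the knockout in DMSO, the knockout under JQ1 and the interaction. In the same order it called 31.3, 32.9, 6.85, 7.23 and 0.0968% of all tested genes.

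The 21 values that changed sign were all uncalled log2 fold changes. With library totals TRIM33 was -0.056 for JQ1 in wild type. With limma on the authors' signal it was 0.009 for JQ1 in the knockout, and the interaction of TRIM51 was -0.022. The others came from leaving out 1 library. For JQ1 in the knockout this gave TRIM17 -0.318 to 0.173 and TRIM33 -0.088 to 0.089, and for the knockout under JQ1 it gave TRIM28 -0.09 to 0.163. For the interaction it gave TRIM51 -0.088 to 0.273, TRIM11 -0.112 to 0.095, TRIM17 -0.19 to 0.301, TRIM58 -0.034 to 0.135, TRIM33 -0.164 to 0.013 and TRIM66 -0.024 to 0.277. Except for TRIM51, an extreme of each range was the value without replicate 3 of the knockout under JQ1.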
